A study of Triticum turgidum subsp. durum with 4 samples.

Results

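The miR396 family was described in small RNA of durum wheat seedling shoots. Members were every deposited entry named as miR396, with any species prefix, arm or variant, and 1 entry was kept for each distinct sequence. This gave 33 of the 2111 distinct miRNA sequences of the series. The rule used names only.

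The 4 libraries came from shoots of 12-day-old seedlings raised without stress in a glasshouse, and differed in genotype and in the treatment of the parent plants. SWH and SCG were Line 6 (UAD1301020-8), called L6, a breeding line described by the study as sensitive to water deficit combined with heat. TWH and TCG were DBA Aurora, a commercial variety described as tolerant. The parents of SWH and TWH had been exposed to water-deficit and heat stress (WH), and the parents of SCG and TCG were controls (CG). Each library was made from the pooled RNA of 8 seedlings, so each seed group had 1 library and no replicate. A test on the reads of a pair of libraries therefore compares those libraries and not the seed groups, and differences between seedlings of a group cannot be seen.

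miR396 is an ancient plant miRNA that guides cleavage of transcripts of growth-regulating factors (GRFs), transcription factors that act with GRF-interacting factors to keep leaf cells dividing. In rice and Arabidopsis, more miR396 means less GRF activity and smaller organs, and the family also responds to drought and heat in several species. A hairpin precursor is cut into a duplex of a 5p and a 3p strand, and the 5p strand is the one known to act on GRF transcripts. Grasses carry a second form of the 5p strand with an extra base relative to the form shared by other plants, which pairs with the GRF site without a bulge.

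Both 5p forms were present in these seedlings, and the 21 sequences of the 5p arm fell into them. Their main sequences are shown because the genotype comparison turns on them. Seeds (bases 2 to 8) are in capitals. The prefix of each name gives the species of the reference miRNA (osa rice, ata Aegilops tauschii, sbi sorghum, mdm apple, tae bread wheat, gma soybean, bdi Brachypodium, csi sweet orange), and not the source of the RNA.
osa-miR396e-5p: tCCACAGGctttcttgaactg
ata-miR396c-5p: tTCCACAGctttcttgaactt
ata-miR396e-5p: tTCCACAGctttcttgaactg
The grass form, here called miR396e-type after osa-miR396e-5p, had 15 sequences, of which 14 shared the seed of osa-miR396e-5p. The widespread form, here called miR396c-type after ata-miR396c-5p, had 6 sequences, all with 1 seed. ata-miR396c-5p and ata-miR396e-5p are both miR396c-type and differ only in their last base.

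The 3p arm had 12 sequences with 10 different seeds. The 5 that matter for the comparisons are shown because their seeds differ. The first 3 are duplex partners of 5p strands at different loci and differ from each other in letters, and the last 2 start at other places of the 3p arm.
ata-miR396c-3p: gGTCAAGAaagctgtgggaag
ata-miR396e-3p: gTTCAATAaagctgtgggaaa
osa-miR396e-3p_L-3: gTTCAAGAaagcccatggaaa
tae-MIR396-p3_1ss1TC: cCTCCGCCtgttgatggttca
ata-MIR396d-p3: aAGCCCATggaaaccatgccc
The names ending in p3 mark pieces of the 3p side that are not the reference 3p strand. Each sequence can match several loci of this tetraploid genome. osa-miR396e-5p was found letter for letter in listed precursors on 2A, 2B, 6A and 6B, ata-miR396c-5p on 6A and 6B, and ata-miR396e-5p on 6A, 6B and 7A, and the reads of one locus cannot be told from those of another.

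The family was abundant, and most of it was 1 molecule. Levels are normalised counts, the reads of a sequence scaled by 1 factor for each library. The 33 sequences summed to 166949 in SWH and 180300 in SCG, against 157545 in TWH and 179113 in TCG. This was 16.3%, 16.7%, 15.2% and 17.4% of all miRNA reads in SWH, SCG, TWH and TCG. osa-miR396e-5p had 134776 in SWH and 144920 in SCG, against 116565 in TWH and 129681 in TCG. It ranked 1 among the 2111 sequences in SWH, SCG and TCG, and 2 in TWH. It held 80.7% and 80.4% of family reads in SWH and SCG, against 74.0% and 72.4% in TWH and TCG.

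The 5p arm held 98.8% to 98.9% of family reads in every library and the 3p arm 1.10% to 1.22%. Of the 33 sequences, 29 were recorded in all 4 libraries, 27 had a mean level of at least 10, and 13 of at least 100. The 14 with a mean between 10 and 100 ranged from 10.04 to 91.9. The 6 below 10 reached at most 14.5 in any library, close to the lowest levels recorded. Only 8, 1, 7 and 4 of all sequences were recorded from under 5 reads in SWH, SCG, TWH and TCG, and 5 reads correspond to 5.99, 4.16, 4.73 and 5.18 normalised counts in the same order. The plot of levels by library shows that the 13 abundant sequences span about 3 orders of magnitude in level, and that the symbols of 1 sequence lie close together with a single wide exception, ata-MIR396d-p3.

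**Figure D1:**
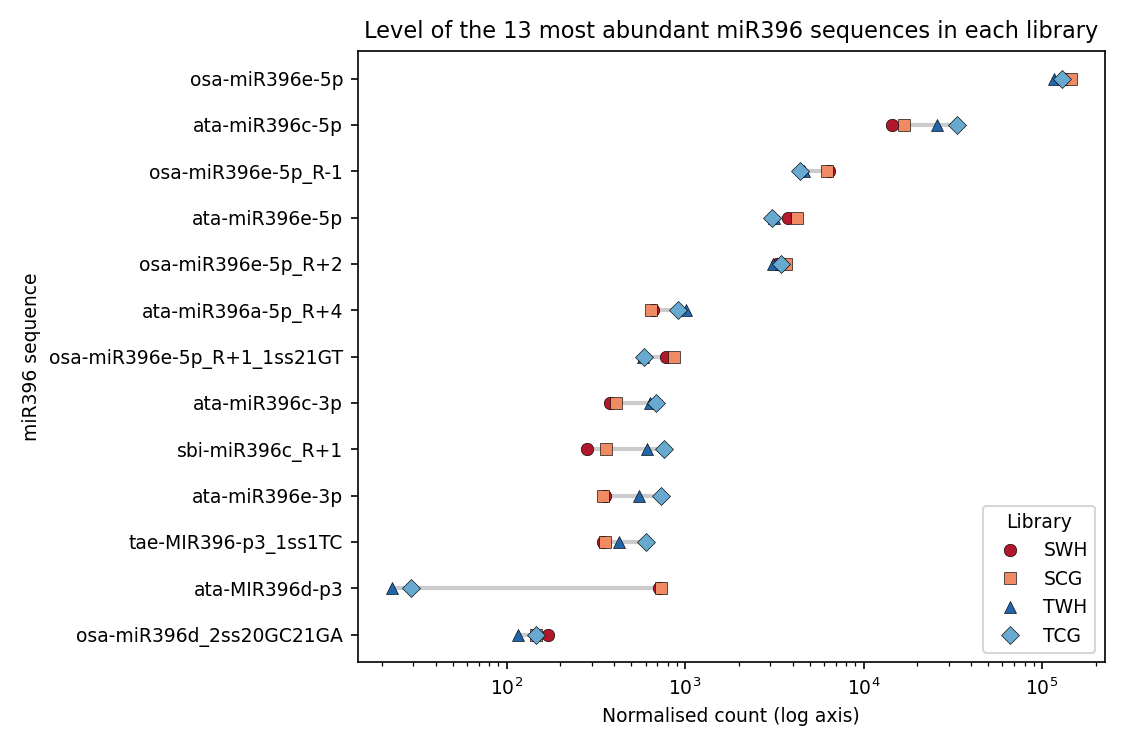
Normalised count (log axis) of the 13 miR396 sequences with a mean of at least 100, with 1 symbol for each library and a grey line over their range. osa-miR396e-5p lies between 116565 and 144920, and ata-MIR396d-p3 at 709.6 and 735 in SWH and SCG, against 22.7 and 29.0 in TWH and TCG.

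Between the genotypes, the summed family level hardly differed but its makeup did. The log2 ratio of the sums was 0.08 for SWH over TWH (95% counting interval 0.07 to 0.09) and 0.01 for SCG over TCG (0.00 to 0.02). The sign of the second depended on scaling, since it was 0.092 by clean reads and -0.068 per all other miRNA reads. Such intervals cover counting error only, since PCR copies of a molecule were not recognisable. Without osa-miR396e-5p, the ratio of the remaining 32 sequences was -0.35 for SWH over TWH and -0.48 for SCG over TCG.

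The miR396e-type was slightly higher in L6 and the miR396c-type lower by a wider margin. The 15 miR396e-type sequences summed to 146468 and 156899 in SWH and SCG, against 126270 and 139469 in TWH and TCG. The 6 miR396c-type sequences summed to 18570 and 21422 in SWH and SCG, against 29511 and 37455 in TWH and TCG. For each type, both L6 libraries lay on one side of both Aurora libraries. On the log2 scale the miR396e-type stood at 0.21 for SWH over TWH and 0.17 for SCG over TCG, and the miR396c-type at -0.67 and -0.81 in the same pairs. A ratio of both types within a library needs no scaling between libraries. There were 7.89 miR396e-type reads for each miR396c-type read in SWH (95% counting interval 7.76 to 8.02) and 7.32 in SCG (7.23 to 7.42), against 4.28 in TWH (4.23 to 4.33) and 3.72 in TCG (3.68 to 3.77). The intervals of the L6 libraries lay clear of those of the Aurora libraries, and within each genotype the WH library had the higher ratio.

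The lower miR396c-type level in L6 was carried by ata-miR396c-5p. It had 14482 in SWH and 16752 in SCG, against 25649 in TWH and 33486 in TCG, and ranked 13, 9, 6 and 4 among all sequences in SWH, SCG, TWH and TCG. The log2 ratio was -0.82 for SWH over TWH and -0.999 for SCG over TCG, and neither went beyond 1, the fold criterion for a call. ata-miR396e-5p, which shares its first 20 bases, lay the other way, with 3761 and 4263 in SWH and SCG, against 3151 and 3069 in TWH and TCG. Its log2 ratio was 0.26 for SWH over TWH and 0.47 for SCG over TCG. Hence 3.85 and 3.93 reads of ata-miR396c-5p were counted for each read of ata-miR396e-5p in SWH and SCG, against 8.14 and 10.9 in TWH and TCG. These 2 members are the only ones of the family whose deposited reads are not whole numbers, such as 12081.5 and 3137.5 in SWH. The counting intervals of their ratio treat them as independent counts. Whether reads were divided between them was not tested, nor was the part of sequencing errors at the last base in this difference.

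**Figure D2:**
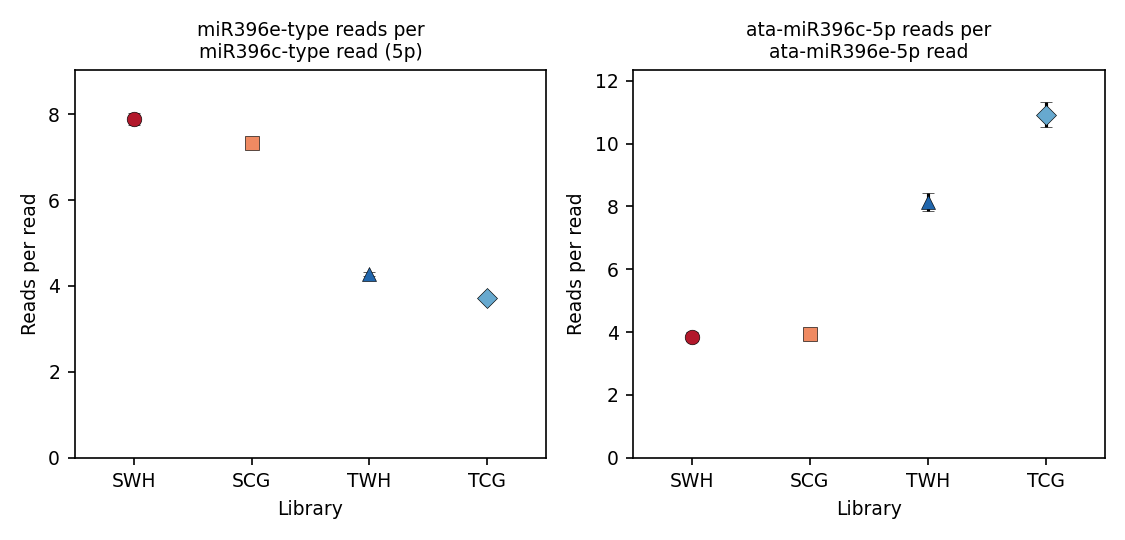
Reads of one form for each read of another within each library, with 95% counting intervals. The ratio of miR396e-type to miR396c-type 5p reads is 7.89 and 7.32 in SWH and SCG, against 4.28 and 3.72 in TWH and TCG, while ata-miR396c-5p for each ata-miR396e-5p is 3.85 and 3.93 in SWH and SCG, against 8.14 and 10.9 in TWH and TCG.

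Over the 27 sequences with a mean level of at least 10, 18 (66.7%) had both L6 libraries on one side of both Aurora libraries, 9 higher and 9 lower. Of all 1258 sequences at that level, 53.5% did, 26.0% higher and 27.5% lower. In edgeR's quasi-likelihood test of genotype with parent treatment as a term, 11 of the 27 members had an unadjusted p under 0.05, where 13.8% of all 1258 sequences did. After Benjamini-Hochberg adjustment over all 1258 sequences 1 passed, ata-MIR396d-p3. osa-miR396e-5p, the main miR396e-type sequence, had an unadjusted edgeR p of 0.104 (adjusted 0.403). DESeq2 called 4, adding ata-miR396c-5p (adjusted p 0.000292), sbi-miR396c_R+1 (0.0121) and mdm-miR396c_R+2 (0.0303), all lower in L6. It called 17 up and 18 down among all 1258 sequences. With no filter on low levels edgeR called 7 members, 3 up and 4 down, where 65 up and 73 down of all 2111 sequences were called. In the edgeR fit with the filter, the call rate over all sequences was 0.0795% upward and 0% downward. This fit leaves 1 residual degree of freedom and takes the libraries of the other seed source as the second value of each genotype.

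ata-MIR396d-p3 was the member with the widest difference. It had 709.6 normalised counts in SWH and 735 in SCG, against 22.7 in TWH and 29.0 in TCG. In reads these were 592 and 883 in SWH and SCG, against 24 and 28 in TWH and TCG. It was up-regulated 31.2-fold in SWH over TWH (log2 4.97, 95% counting interval 4.38 to 5.55) and 25.4-fold in SCG over TCG (log2 4.66, 4.12 to 5.21). Among the 1218 sequences with a mean level of at least 10 and recorded in all libraries, its mean log2 ratio over both pairs, 4.82, was the highest. The edgeR log2 fold change was 4.81 with an adjusted p of 0.0468, and over the other tools, filters, scalings and the model without parent treatment the adjusted p ranged from 6.9e-42 to 0.0375. With 1 library left out, parent treatment could not be kept in the model and 1 genotype had a single library, and the adjusted p then ranged from 1.4e-05 to 0.00222. For stressed over control parents its log2 ratio was -0.05 in L6 and -0.35 in Aurora, both with intervals that include 0.

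The summed level of the rest of the 3p arm lay the other way. ata-MIR396d-p3 made up 37.1% of 3p reads in SWH and 37.1% in SCG, against 1.288% in TWH and 1.32% in TCG. The other 11 sequences of the 3p arm together were lower in L6, at 1201 and 1244 in SWH and SCG, against 1742 and 2160 in TWH and TCG. Among them ata-miR396c-3p, the strand opposite ata-miR396c-5p, had 379 and 409 in SWH and SCG, against 639.8 and 685 in TWH and TCG. ata-miR396e-3p, opposite ata-miR396e-5p, had 357 and 345 in SWH and SCG, against 552 and 737 in TWH and TCG, and was down-regulated in SCG over TCG (log2 -1.10).

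ata-MIR396d-p3 was found exactly on the 2A and 2B precursors, which also hold osa-miR396e-5p and tae-MIR396-p3_1ss1TC. tae-MIR396-p3_1ss1TC, from the same side of the same hairpins and also found on 4A, had 345 and 356 in SWH and SCG, against 429 and 608 in TWH and TCG. Within a library, 2.06 reads of ata-MIR396d-p3 were counted for each read of tae-MIR396-p3_1ss1TC in SWH and 2.07 in SCG, against 0.0530 in TWH and 0.0477 in TCG. For each 1000 reads of osa-miR396e-5p there were 5.27 and 5.07 of ata-MIR396d-p3 in SWH and SCG, against 0.195 and 0.223 in TWH and TCG. Both ratios were far higher in L6, so the total reads of neither tae-MIR396-p3_1ss1TC nor osa-miR396e-5p shared the difference of ata-MIR396d-p3. Both sequences also match loci other than 2A and 2B, and their reads from these hairpins alone were not separated. The 2B precursor (chr2B:759453121-759453264, plus strand of the durum assembly Svevo.v1) is shown with osa-miR396e-5p and ata-MIR396d-p3 in capitals.
2B precursor: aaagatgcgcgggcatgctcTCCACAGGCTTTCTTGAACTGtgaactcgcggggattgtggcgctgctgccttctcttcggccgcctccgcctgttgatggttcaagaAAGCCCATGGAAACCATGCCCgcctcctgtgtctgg
In the fold listed with the files, osa-miR396e-5p pairs through 17 of its 21 bases with osa-miR396e-3p_L-3, but through only 9 with ata-MIR396d-p3 and 5 with tae-MIR396-p3_1ss1TC. Counted from the first base of this precursor, osa-miR396e-5p covers bases 21 to 41, tae-MIR396-p3_1ss1TC 85 to 105, osa-miR396e-3p_L-3 101 to 121 and ata-MIR396d-p3 109 to 129. osa-miR396e-3p_L-3, the partner in the duplex, had 37.2 and 45.8 in SWH and SCG, against 39.8 and 43.5 in TWH and TCG, and the libraries of both genotypes overlapped. It also matches listed precursors on 4A and 5B, so this is not the level of the 2A and 2B strand alone. The remaining sequences of this arm were scarce. osa-MIR396e-p3, at bases 106 to 126 of the 2B precursor, had 13.2 and 20.8 in SWH and SCG. It had 14.2 and 7.25 in TWH and TCG, so the genotypes overlapped. osa-miR396e-3p_L-4R+1 had 21.6 and 20.8 in SWH and SCG, against 11.4 and 13.5 in TWH and TCG, and bdi-MIR396a-p3, opposite osa-miR396e-5p on 6A, had 25.2 and 29.97 in SWH and SCG, against 25.6 and 30.02 in TWH and TCG. The plot of products along the 2B precursor shows the shift of ata-MIR396d-p3 past the others. Whether L6 and Aurora differ in sequence at these loci was not tested.

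**Figure D3:**
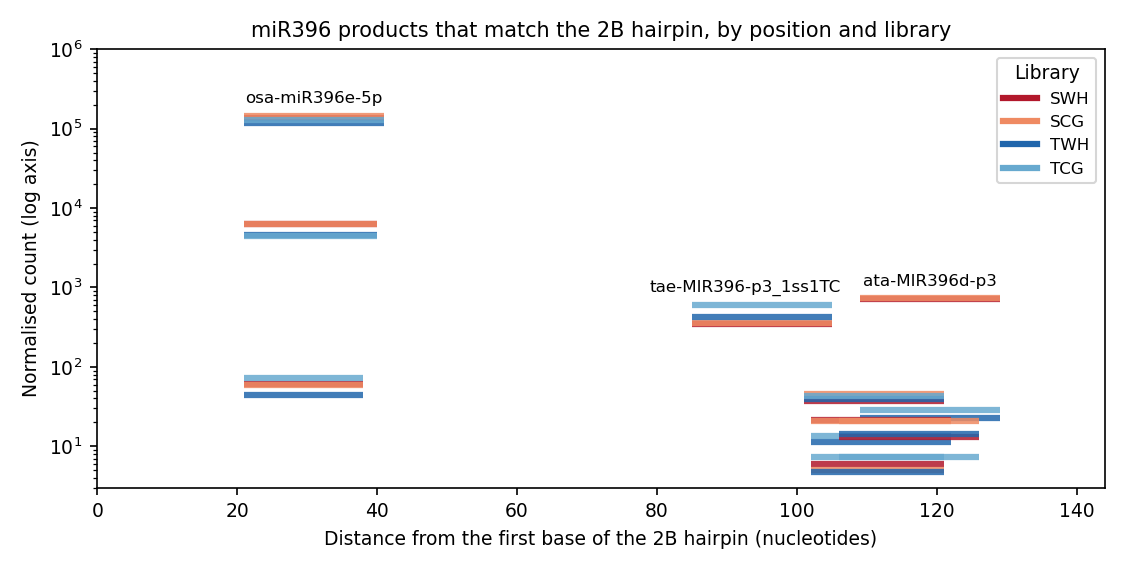
Normalised count (log axis) of each miR396 sequence that matches the 2B precursor exactly, drawn over the bases it covers, counted in nucleotides from the first base, with 1 colour for each library. osa-miR396e-5p lies at bases 21 to 41, and ata-MIR396d-p3 at bases 109 to 129 with 709.6 and 735 in SWH and SCG, against 22.7 and 29.0 in TWH and TCG.

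The precursors of the miR396c-type had ordinary duplexes, and they are shown because their arms differed between genotypes to unequal degrees. In each, both strands are in capitals.
6A precursor: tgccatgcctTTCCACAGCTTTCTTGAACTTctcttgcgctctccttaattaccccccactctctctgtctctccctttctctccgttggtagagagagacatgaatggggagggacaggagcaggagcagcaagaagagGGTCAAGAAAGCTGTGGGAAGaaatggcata
7A precursor: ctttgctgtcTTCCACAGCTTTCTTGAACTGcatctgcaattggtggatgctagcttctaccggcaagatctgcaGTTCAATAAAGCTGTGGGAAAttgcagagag
The 6A precursor (chr6A:591048607-591048777, plus strand) holds ata-miR396c-5p and ata-miR396c-3p, which pair through 18 bases. The 7A precursor (chr7A:82967911-82968016, plus strand) holds ata-miR396e-5p and ata-miR396e-3p, also paired through 18. There were 38.2 and 41.0 reads of ata-miR396c-5p for each of ata-miR396c-3p in SWH and SCG, against 40.1 and 48.9 in TWH and TCG, so these arms went together. For ata-miR396e the same ratio was 10.5 and 12.4 in SWH and SCG, against 5.71 and 4.16 in TWH and TCG. The 5p strand of this pair also matches precursors on 6A and 6B that do not hold its 3p strand, and its reads were not separated by locus.

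Sequence variants at the 3' end of the 5p strand also differed between genotypes. They are shown because they keep the seed of their 5p form, in capitals, and differ in their last bases.
osa-miR396e-5p_R-1: tCCACAGGctttcttgaact
osa-miR396e-5p_R+2: tCCACAGGctttcttgaactgtc
osa-miR396e-5p_R+1_1ss21GT: tCCACAGGctttcttgaacttt
osa-MIR396e-p5_2ss18AT19CT: tCCACAGGctttcttgattt
ata-miR396a-5p_R+4: tCCACAGGctttcttgaactgacca
sbi-miR396c_R+1: tTCCACAGctttcttgaacttt
mdm-miR396c_R+2: tTCCACAGctttcttgaacttca
osa-miR396e-5p_R-1, a base shorter than osa-miR396e-5p, had 6382 and 6215 in SWH and SCG, against 4607 and 4392 in TWH and TCG. There were 21.1 and 23.3 full-length reads for each of these in SWH and SCG, against 25.3 and 29.5 in TWH and TCG. osa-miR396e-5p_R+2, longer by bases that the 6A and 6B precursors hold, had 3258 and 3696 in SWH and SCG, against 3105 and 3425 in TWH and TCG, and differed little.

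Variants found letter for letter in no listed precursor went both ways. In 3 miR396e-type sequences the bases after the part shared with a precursor were T only and were not in the window listed for the sequence either. They summed to 903 and 992 in SWH and SCG, against 651 and 675 in TWH and TCG, at log2 0.47 for SWH over TWH and 0.56 for SCG over TCG. The most abundant of them, osa-miR396e-5p_R+1_1ss21GT, had 780.4 and 862 in SWH and SCG, against 578 and 592 in TWH and TCG. osa-MIR396e-p5_2ss18AT19CT also ends in T, but its last 8 bases are in the short 7A window listed for it, which differs from it at an inner base. It met the call rule, with 105.5 and 98.2 in SWH and SCG, against 48.3 and 42.4 in TWH and TCG (log2 1.13 for SWH over TWH and 1.21 for SCG over TCG). ata-miR396a-5p_R+4, whose last 4 bases follow osa-miR396e-5p in no listed precursor, had 663 and 640.2 in SWH and SCG, against 1012 and 907 in TWH and TCG. osa-miR396d_2ss20GC21GA, the least abundant member with a mean of at least 100, had 170.2 and 146.5 in SWH and SCG, against 115.5 and 147.0 in TWH and TCG, so the genotypes overlapped. For each 1000 reads of osa-miR396e-5p, ata-miR396a-5p_R+4 had 4.92 and 4.42 in SWH and SCG, against 8.68 and 6.99 in TWH and TCG.

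In the miR396c-type, sbi-miR396c_R+1 and mdm-miR396c_R+2 begin with all bases of ata-miR396c-5p. sbi-miR396c_R+1 had 280.5 and 361 in SWH and SCG, against 609 and 758 in TWH and TCG, and was down-regulated in both pairs (log2 -1.12 for SWH over TWH and -1.07 for SCG over TCG). For each 1000 reads of ata-miR396c-5p it had 19.4 and 21.6 in SWH and SCG, against 23.7 and 22.6 in TWH and TCG, so it followed the full-length strand closely. The origin of mdm-miR396c_R+2 was not resolved. Its first 22 bases are held by precursors of ata-miR396c-5p, but it is listed for the 7A locus of ata-miR396e-5p, from which it differs at 1 base. mdm-miR396c_R+2 had 5.99 and 10.8 in SWH and SCG, against 53.9 and 82.8 in TWH and TCG, from 5 and 13 reads in SWH and SCG and 57 and 80 in TWH and TCG. Its log2 ratio was -3.17 for SWH over TWH and -2.94 for SCG over TCG, and it was down-regulated in both. Its mean log2 ratio over both pairs, -3.05, was the lowest of the same 1218 sequences. Its edgeR adjusted p was 0.0925, and it ranged from 3.3e-09 to 0.0771 over the same alternatives and from 0.00304 to 0.113 with 1 library left out. For each 1000 reads of ata-miR396c-5p it had 0.414 and 0.646 in SWH and SCG, against 2.10 and 2.47 in TWH and TCG, and for each 1000 reads of ata-miR396e-5p 1.59 and 2.54 in SWH and SCG, against 17.1 and 27.0 in TWH and TCG, so its ratio to either strand was also lower in L6. In SWH it rests on 5 reads.

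**Figure D4:**
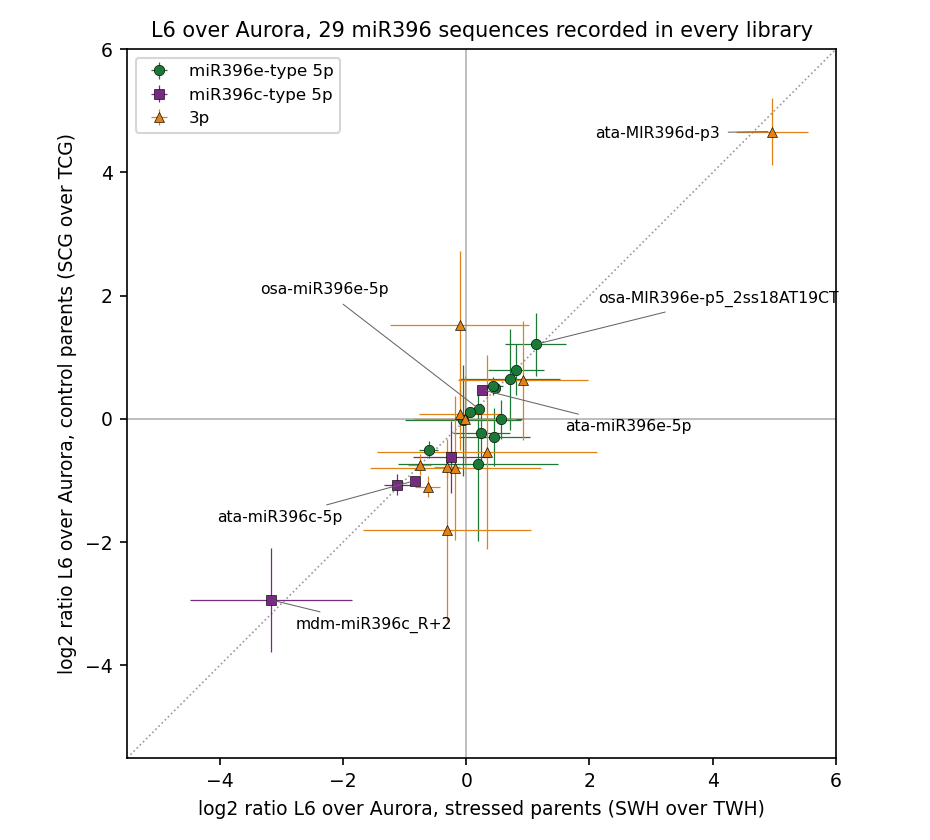
log2 ratio L6 over Aurora from stressed parents (SWH over TWH, x axis) and from control parents (SCG over TCG, y axis) for the 29 sequences recorded in all libraries, with 95% counting intervals and 1 symbol for each arm and type. ata-MIR396d-p3 stands alone at 4.97 and 4.66, mdm-miR396c_R+2 lies lowest at -3.17 and -2.94, and most others lie between -1 and 1.

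By the call rule for a pair of libraries (a chi-squared and a Fisher's exact test, both with p under 0.05, and a log2 fold change beyond 1), 8 of the 32 recorded members were called in SCG over TCG, 3 up and 5 down, where 30.2% of all recorded sequences were called, 14.3% up and 15.9% down. In SWH over TWH it was 5 of 31, 2 up and 3 down (16.1%), where 29.8% of all were called, 12.0% up and 17.7% down. Among sequences recorded in both libraries, 7 of 30 members (23.3%) were called in SCG over TCG, where 17.0% of all were, and 4 of 30 (13.3%) in SWH over TWH, where 10.5% of all were. Whether the family's share lay below or above that of all sequences thus depended on sequences recorded in only 1 library of a pair. ata-MIR396d-p3 and osa-MIR396e-p5_2ss18AT19CT were up-regulated in both pairs, and sbi-miR396c_R+1 and mdm-miR396c_R+2 were down-regulated in both. In SCG over TCG, osa-MIR396e-p3 was also up-regulated, with 20.8 in SCG against 7.25 in TCG, but its log2 ratio was -0.11 in SWH over TWH. Also in SCG over TCG, ata-miR396e-3p and gma-miR396a-3p_L+1 were down-regulated, the last with 4.16 in SCG against 14.5 in TCG. csi-miR396a-5p_R+1_1ss21GA was called down in SCG over TCG and gma-miR396a-3p in SWH over TWH with 6 reads in the Aurora library and none recorded in the L6 library, so no fold is given. Fisher's adjusted p over all sequences was under 0.05 for all 8 calls in SCG over TCG and for 4 of 5 in SWH over TWH.

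In the libraries from stressed parents the summed family and its 2 most abundant members had slightly lower levels in both genotypes. The log2 ratio of the family sums was -0.11 for SWH over SCG and -0.19 for TWH over TCG. osa-miR396e-5p stood at -0.10 in L6 and -0.15 in Aurora, and ata-miR396c-5p at -0.21 in L6 and -0.38 in Aurora. The members next in level were not all lower. osa-miR396e-5p_R-1 stood at 0.04 in L6 and 0.07 in Aurora, ata-miR396e-5p at -0.18 in L6 and 0.04 in Aurora, osa-miR396e-5p_R+2 at -0.18 in L6 and -0.14 in Aurora, and ata-miR396a-5p_R+4 at 0.05 in L6 and 0.16 in Aurora. The miR396c-type sum stood at -0.21 in L6 and -0.34 in Aurora, and the miR396e-type sum at -0.10 in L6 and -0.14 in Aurora. The sum of the 3p arm stood at -0.05 in L6 and -0.31 in Aurora. Of the 29 sequences recorded everywhere, 19 had a mean log2 ratio below 0 and 17 had the same sign in both genotypes. The same counts were not made over all sequences, so these are not read as a trait of the family. Among sequences recorded in both libraries of a pair, the median log2 ratio of miR396 was 0.02 in L6 and -0.16 in Aurora. All sequences had -0.00 and -0.04. In the plot of both genotypes, most of the less abundant members have counting intervals that include 0.

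**Figure D5:**
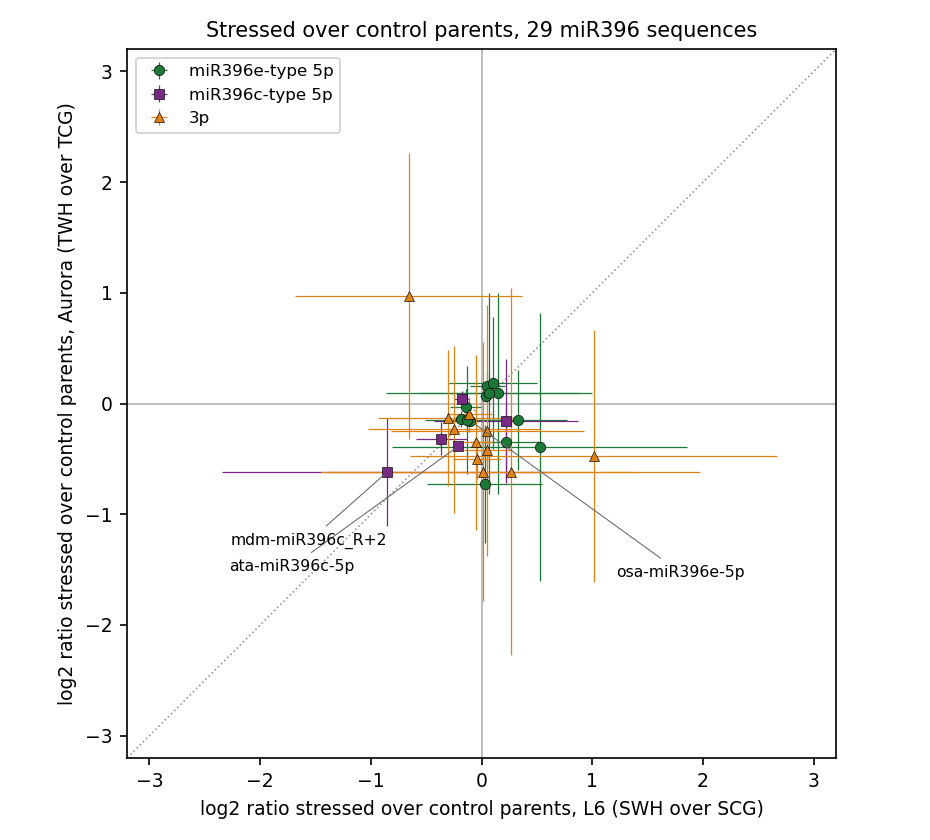
log2 ratio stressed over control parents in L6 (SWH over SCG, x axis) and in Aurora (TWH over TCG, y axis) for the 29 miR396 sequences recorded in all libraries, with 95% counting intervals. Most sequences lie near 0 on both axes, with osa-miR396e-5p at -0.10 and -0.15 and ata-miR396c-5p at -0.21 and -0.38.

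No member passed edgeR's test of parent treatment after Benjamini-Hochberg adjustment, and none had an unadjusted p under 0.05, where 1.59% of all 1258 sequences did. DESeq2 and limma also called none. With no filter on low levels none was called and 1 member had an unadjusted p under 0.05. By the pair rule, 4 of 33 members (12.1%) were called in TWH over TCG, 2 up and 2 down, where 22.0% of all were, 10.8% up and 11.2% down. In SWH over SCG 1 of 31 (3.23%) was called, down, where 19.4% of all were, 7.47% up and 11.9% down. All 5 of these calls rest on at most 10 reads in one library and none recorded in the other. gma-miR396a-3p and osa-miR396e-5p_1ss4AT had 6 reads each in TWH, osa-miR396e-5p_1ss13CT and csi-miR396a-5p_R+1_1ss21GA 6 reads each in TCG, and osa-miR396e-5p_1ss13CT also 10 in SCG. Only 4 of 27 members (14.8%) had both WH libraries on one side of both CG libraries, where 22.2% of all sequences did.

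The response to parental stress could not be separated further between genotypes. The difference of the log2 ratios, L6 minus Aurora, was 0.17 for ata-miR396c-5p (95% counting interval 0.13 to 0.21), 0.05 for osa-miR396e-5p (0.03 to 0.06) and -0.22 for ata-miR396e-5p (-0.32 to -0.12). Less abundant members had wider differences. It was 0.47 for ata-miR396e-3p (0.20 to 0.74) and 0.46 for tae-MIR396-p3_1ss1TC (0.18 to 0.74). For osa-miR396d_2ss20GC21GA it was 0.56 (0.09 to 1.04), and for osa-miR396e-5p_R-3 0.75 (0.01 to 1.49). All other intervals included 0, and of those that did not, only that of ata-miR396e-5p lay below 0. These rest on 1 library for each group, and no test over replicates could be made. No member had ratios of opposite sign in both genotypes that were each beyond counting error.

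Some of the windows listed as miR396 precursors lie within genes. Of the 25 listed miR396 windows, 11 hold the first 18 bases of osa-miR396e-5p, and 8 of these overlap a gene annotated on Svevo.v1. Among all 1854 windows listed for the series only these 11 hold them. Windows were listed by the miRNA sequence assigned to them, so this count follows largely from the naming and is no search of the genome. None of the 8 holds a 3p member. How many of all 1854 windows overlap a gene was not counted, so the 8 have no background share. The window at chr6B:689611687-689611836 is among the 8 but holds osa-miR396e-5p in full, and is the 6B precursor given above for that sequence. The gene it overlaps is annotated from 689246197 to 689951067. Another gene ends inside that span, 11212 bases left of the window. On the opposite strand each of the 8 holds the complement of these first 18 bases. The opposite strands of 2 of them are shown, and each pairs without a gap with the first 19 bases of osa-miR396e-5p. Of these, 18 follow from how the windows were picked. The unbroken run from the first base of ata-miR396c-5p is 8 bases. Pairing that goes on past a bulge was not counted, so these runs do not compare how well the 2 forms pair. The complement of the first 18 bases is in capitals.
TRITD_4Av1G200390 window: atcgTTCAAGAAAGCCTGTGGAaaac
TRITD_2Av1G251570 window: accgTTCAAGAAAGCCTGTGGAaacg
The first faces chr4A:586177675-586177720 and the second chr2A:681757924-681758007. The gene table gives no strand or function, so neither gene is named as a target. The match of letters is a description and says nothing of cleavage.

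Other miRNA families known to act in leaf growth were counted beside miR396, from lists chosen with earlier results of these data known. In SCG over TCG, miR164 had 4 up and 3 down of 13 recorded sequences, miR319 1 up and 1 down of 10, miR165/miR166 none up and 4 down of 20, miR156 1 up and 4 down of 19, and miR390 none of 3. Over all recorded sequences 30.2% were called, and miR164, at 53.8%, was the list above that share. Among sequences recorded in both libraries 17.0% of all were called, and miR164 (45.5%), miR319 (22.2%) and miR156 (22.2%) lay above it. In SWH over TWH, miR319 had 4 up of 11, miR164 4 up and 3 down of 13, miR165/miR166 4 down of 21, miR156 2 down of 20 and miR390 1 up of 4. Over all recorded sequences 29.8% were called, and miR319, at 36.4%, and miR164, at 53.8%, were the lists above that share. Both also lay above it among sequences recorded in both libraries, at 22.2% and 33.3%, where 10.5% of all were called. The median log2 ratio of miR396 was 0.13 in SWH over TWH and -0.01 in SCG over TCG, where all sequences recorded in both had -0.00 and -0.05.

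Over the whole series, 855716, 1293324, 1096670 and 994074 reads were assigned to miRNA sequences in SWH, SCG, TWH and TCG. Between 1640 and 1868 sequences were recorded in each library, and the scaling factors lay between 0.833 and 1.20. In whole shoots, fewer cells with a miRNA and less of it in each cell cannot be told apart.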

How the data were processed

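Small RNA of shoots was sequenced in 4 libraries, 1 for each seed group, and values were used as deposited by the authors. The authors trimmed adapters, kept sequences of 18 to 25 nt, discarded those matching other non-coding RNAs, repeats or mRNAs, which can remove genuine miRNA reads that match a transcript, and used ACGT101-miR to compare them with miRBase and with Svevo.v1, the durum assembly. Raw reads were treated as estimated counts, since 2.79% to 3.17% of the deposited values in a library were not whole. The deposited normalised counts, a signal, are the authors' raw counts times 1 factor for each library. 28 entries were not analysed here, and 2174 entries gave 2111 distinct sequences. Chromosome names were assigned by the order of the assembly identifiers and checked by the last position on each.

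Pairs of libraries were compared with the chi-squared and Fisher's exact tests over all sequences. Genotype and parent treatment were tested with edgeR 4.0.16 (quasi-likelihood, TMM, counts rounded, mean level of at least 10), with DESeq2 1.42.0, limma 3.58.1 and R 4.3.3 as alternatives. Scripts were tested on simulated data. Members, lists and tests were chosen with earlier results of these data known. The rule named every member with a mean level of at least 100, those called in a pair or by edgeR, and those on the opposite arm. Differential calls of the authors were not used. The depth limits low members, and intervals (95%) cover counting error only.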

Additional observations from a re-analysis of the deposited data

How the results depend on the processing

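Call rules moved the counts of members called. The count in TWH over TCG was 4 and was 0 with a p threshold of 0.01, with adjusted p, with a level of at least 10, or with only sequences recorded in both libraries, and 14 with no fold criterion. In SWH over SCG it was 1 and was 0 with adjusted p, a level of at least 10, or recorded in both, and 7 with no fold criterion. In SCG over TCG it was 8, but 5 with a p threshold of 0.01 and 18 with no fold criterion, and in SWH over TWH it was 5, but 17 with no fold criterion. The count of genotype calls by edgeR was 1, the only call among all 1258 sequences. It was 7 with no filter, where 65 up and 73 down of all 2111 sequences were called. Without parent treatment as a term it was 2, where 17 up and 6 down of all 1258 were called. DESeq2 gave 4, where 17 up and 18 down of all were called, and limma gave 2, where 7 up and 3 down were. The calls over all sequences thus also moved with the setting. Leaving out 1 library also moved the count, but 3 libraries cannot hold the other factor as a term. These fits changed both choices at once and rest on a single library in one arm, assumed to vary like the others. The parent treatment effect gave 0 with the other tools, filters and scalings. With a library left out it also gave 0, but genotype then enters the contrast, so those fits say nothing of its stability. ata-MIR396d-p3 was called for genotype in every setting.

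Summed family ratios depended on scaling. TWH over TCG was -0.19, and -0.12 with TMM factors, -0.27 without osa-miR396e-5p and -0.24 per all other miRNA reads. SWH over SCG was -0.11, and -0.18 by clean reads, -0.09 with TMM factors, -0.14 without osa-miR396e-5p and -0.049 per other reads. SCG over TCG was 0.01, and 0.092 by clean reads, 0.057 with TMM factors, -0.48 without osa-miR396e-5p and -0.068 per other reads. SWH over TWH was 0.08, and 0.10 by clean reads, -0.35 without osa-miR396e-5p and 0.12 per other reads. The sign changed for SCG over TCG and SWH over TWH when the most abundant member was left out. Per other reads, SCG over TCG was below 0 because the family held 16.7% of miRNA reads in SCG against 17.4% in TCG. The normalised counts summed over all sequences were themselves higher in SCG, at log2 0.07. No paired analysis was possible because each seed group has 1 library and so only 1 replicate number, and libraries were matched only by parent treatment or genotype as a term. The limits are the single library for each group, low read counts of scarce members and unresolved loci.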
